A study of Mus musculus with 12 samples.

Results

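Amino acid transporters carry free amino acids, and in some families amines, osmolytes or creatine, across the membranes of cells. The genes described here are the mouse genes of the *Slc1a*, *Slc3a*, *Slc6a*, *Slc7a*, *Slc36a*, *Slc38a* and *Slc43a* families. They were chosen by gene symbol, with earlier results of these data known. The rule itself reads symbols and no measured value. Of the 24411 genes in the deposited liver table, 59 symbols matched, and 57 remained after *Slc7a11* and *Slc1a2* were left out, as the rule asked. All 57 are protein coding. The families are mostly known at the plasma membrane, but *Slc36a1* and *Slc38a9* are also known from the lysosome, so the location in the name does not hold for every member.

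mRNA-seq was performed on livers of 9 mice in 3 genotypes, with 3 mice each. The control mice (cont.) were *Atg7* flox/flox without Cre. The *Atg7*-KO mice were *Atg7* flox/flox;Alb-Cre, in which the albumin promoter drives Cre, a knockout that the study calls hepatocyte-specific. Deletion in other liver cells was not tested here. The *Atg7*-KO;p62 T352A mice carried, in addition, the knock-in change T352A on both alleles of p62 (gene *Sqstm1*), made by prime editing in embryonic stem cells and so present in every cell. The floxed *Atg7* alleles were shared by all 3 genotypes. The mice were 3 months old, on a C57BL/6 background, on a standard diet and without a further treatment. ATG7 is needed to form autophagosomes, and p62 is an autophagy receptor that binds KEAP1, the inhibitor of the transcription factor NRF2. The comparisons ask which transporter mRNAs differ when hepatocytes lose autophagy, and which of them differ again when p62 can no longer retain KEAP1.

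The libraries held 9671073 to 23285134 counts, the deepest being cont. mouse 1 and the shallowest cont. mouse 3. Values in CPM are counts scaled by library size and edgeR's TMM factors, given in the order of mice 1, 2 and 3. *Atg7* itself was at 46.4, 44.2 and 55.4 CPM in cont., 10.1, 9.57 and 12.0 CPM in *Atg7*-KO and 29.7, 27.4 and 29.5 CPM in *Atg7*-KO;p62 T352A livers. The log2 fold change against cont. was -2.20 in *Atg7*-KO (FDR = 2.55e-05) and -0.75 in *Atg7*-KO;p62 T352A (FDR = 0.0206), and the Cre-carrying genotypes also differed from each other (1.45, FDR = 0.000164). These are totals over the whole gene, which do not isolate the deleted part, and how far the extent of deletion bears on the comparison of these 2 genotypes was not tested. *Nqo1*, an NRF2 target, was at 6.36, 7.28 and 12.2 CPM in cont., 175, 219 and 249 CPM in *Atg7*-KO and 11.7, 13.2 and 18.4 CPM in *Atg7*-KO;p62 T352A livers. Cont. mouse 1 stood apart from the other libraries, with a second principal component of 94.5 against -48.9 to 16.1 in the other 8 mice. The 3 mice numbered 1 had 7, 28 and 9 counts of *Xist*, the X-inactivation RNA, and the other 6 had at least 8578, so that sex, as read from this RNA, did not separate the genotypes.

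The liver moves amino acids with a division of labour between families. System N (*Slc38a3*) exchanges glutamine, system A (*Slc38a1*, *Slc38a2* and *Slc38a4*) takes up small neutral amino acids with sodium, and *Slc7a2* brings arginine and lysine into hepatocytes. Exchangers made of a *Slc3* heavy chain and a *Slc7* light chain swap large neutral, cationic or acidic amino acids, and *Slc1* carriers move glutamate and aspartate or alanine and serine. Many of these genes are known targets of the amino acid response through ATF4, and some are known to answer to NRF2.

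Per kilobase of transcript, *Slc38a3* had the highest level of all members, with 649 ± 227 CPM per kilobase (SD, n = 3) in cont. liver, 176 ± 4.15 CPM per kilobase in *Atg7*-KO and 465 ± 102 CPM per kilobase in *Atg7*-KO;p62 T352A liver. *Slc38a4* followed with 272 ± 61.9 CPM per kilobase in cont., then *Slc6a13* with 89.7 ± 12.9, *Slc7a2* with 71.6 ± 4.98 and *Slc38a2* with 58.3 ± 33.6. In cont. liver the spread of *Slc38a2* covered the means of *Slc7a2* and *Slc6a13*, so its place among them is not firm. In *Atg7*-KO liver *Slc1a4* (42.1 ± 3.89 CPM per kilobase) ranked 4 among the members, and it ranked 23 in cont. (1.38 ± 0.393) and 18 in *Atg7*-KO;p62 T352A liver (2.89 ± 0.754). On the same scale *Slc1a1* had rank 34 in cont., rank 7 in *Atg7*-KO and rank 14 in *Atg7*-KO;p62 T352A liver. With the union of exons as the length, *Slc38a2* ranked 6 over the 9 mice, and *Slc6a12* took its place among the 5 highest.

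**Figure D1:**
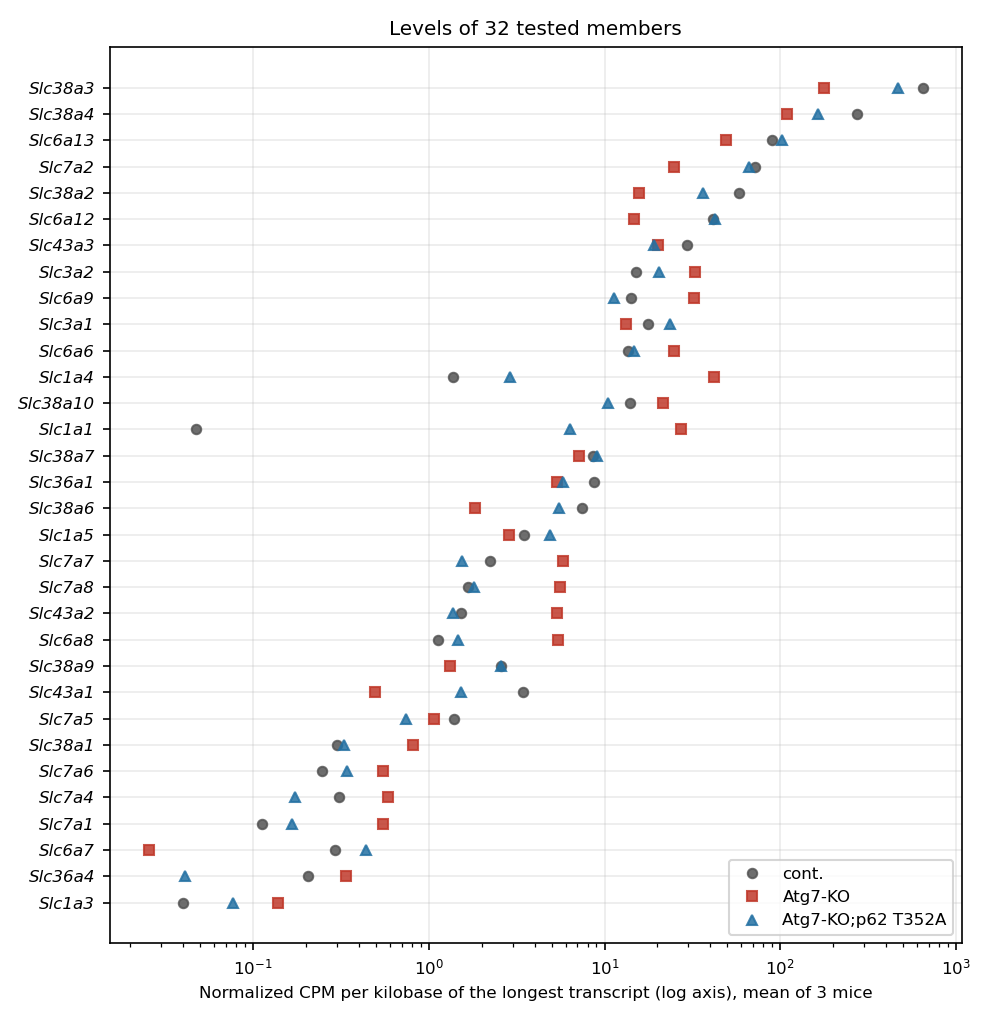
Mean level of 32 of the 33 tested members in CPM per kilobase of the longest transcript, on a log axis, with 1 symbol per genotype (n = 3 mice). *Slc38a3* is highest in every genotype, and *Slc1a1* and *Slc1a4* show the widest separation of *Atg7*-KO from cont. among members above 1 CPM per kilobase in any genotype.

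The summed CPM of the 57 members was 4413, 4429 and 5861 in cont., 2499.6, 2412 and 2389 in *Atg7*-KO and 4293, 3310 and 3609 in *Atg7*-KO;p62 T352A livers. Every *Atg7*-KO mouse was below every mouse of the other genotypes. The share of *Slc38a3*, *Slc38a4* and *Slc7a2*, picked after their levels were seen, in this sum was 76.4, 73.3 and 75.5% in cont., 50.4, 48.5 and 46.3% in *Atg7*-KO and 73.5, 68.6 and 68.7% in *Atg7*-KO;p62 T352A livers. The sum was thus set largely by these 3 hepatocyte transporters, while 13 members that passed the filter blind to genotype went the other way.

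A gene was called when edgeR's quasi-likelihood test gave a Benjamini-Hochberg FDR under 0.05 over the 13922 genes tested and the fold change was over 1.5. Of the 57 members, 33 had enough counts to be tested, and 32 also passed a filter that does not look at genotype, a mean of at least 0.5 CPM over the 9 mice (*Slc1a3* did not). Between *Atg7*-KO and cont. livers, the test called 24 of 33 members, of which 14 rose and 10 fell in *Atg7*-KO. The 14 include *Slc1a3*, which entered the test through its *Atg7*-KO counts, and with the filter that does not look at genotype 13 were higher and 10 lower. Among all tested genes, 43.7% were called in this comparison, 21.6% higher and 22.1% lower, so the livers differed widely and a call by itself is common. The median log2 fold change was 0.62 over the 33 members and -0.03 over all tested genes. The 2 groups of mice did not overlap for 24 of the 33 members, against 55.5% of all tested genes. Without *Atg7*-KO mouse 2 or mouse 3, the number of members called higher fell from 14 to 9.

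With the *Atg7*-KO livers as the baseline, 23 of 33 members were called in *Atg7*-KO;p62 T352A livers, 9 as higher and 14 as lower, with 51.0% of all tested genes called (24.7% higher, 26.2% lower). The median log2 fold change was -0.68 over the members and 0.0021 over all tested genes, and the groups did not overlap for 29 of 33 members against 73.2% of all genes. This comparison shares the *Atg7*-KO mice with the first, so opposite directions in both are not independent of each other. Without mouse 3 of either genotype, 5 members were called higher, where all mice gave 9. Between *Atg7*-KO;p62 T352A and cont. livers, 3 of 33 members were called, *Slc1a1* and *Slc1a4* higher and *Slc36a4* lower, with 11.6% of all tested genes called (6.25% higher, 5.34% lower). Here the median log2 fold change was 0.030 over the members and 0.0044 over all genes, and groups did not overlap for 9 of 33 members against 26.6% of all genes. In this last comparison edgeR gave an unadjusted p under 0.05 for 8 of 33 members, against 28.2% of all tested genes, and DESeq2 called 6 of 33, against 16.0%. When cont. mouse 1 was left out, *Slc36a4* was lost and *Slc36a1*, *Slc38a2*, *Slc38a6*, *Slc43a1*, *Slc43a3* and *Slc7a5* were called lower, so the number called lower went from 1 to 6. Leaving out 1 mouse moved the number of all genes called in this comparison between 244 and 1514 higher and between 191 and 1731 lower (870 and 743 with all mice), the lowest without *Atg7*-KO;p62 T352A mouse 3 and the highest without cont. mouse 1. Without the 3 mice that were low in *Xist*, 1314 genes were higher and 1661 lower, and 7 members were lower. With the mouse number as a block in the fit, 517 genes were higher and 471 lower. With only the compared genotypes in the fit, 23 genes were higher and 27 lower, and 1 member was higher and 0 lower.

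**Figure D2:**
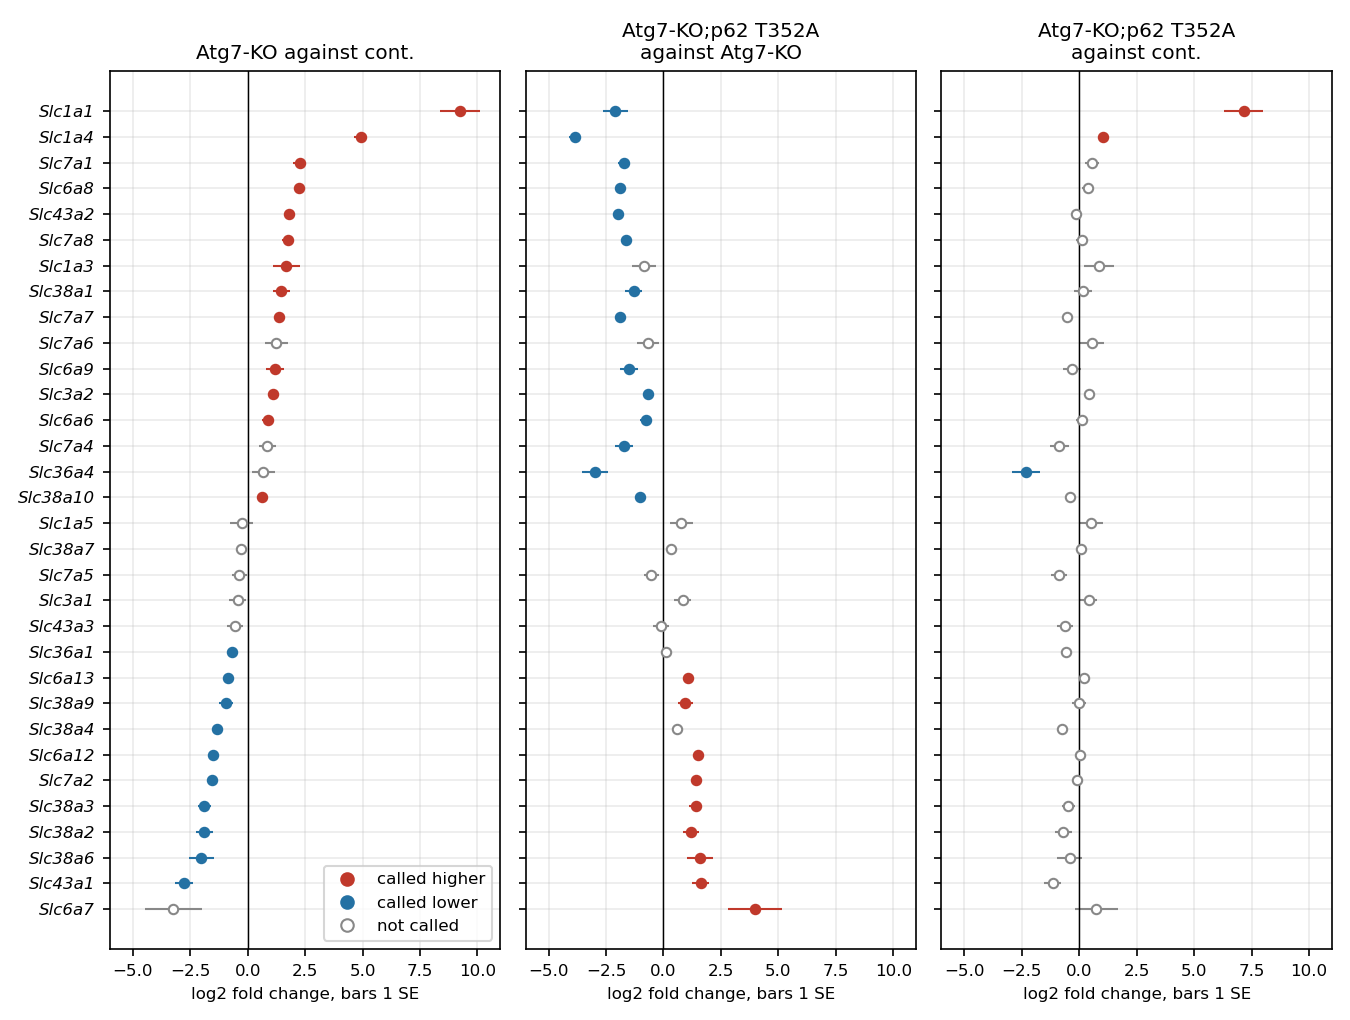
Log2 fold change of 32 of the 33 tested members in the 3 comparisons, ordered by the first, with bars of 1 SE. Filled symbols passed the FDR and fold thresholds (red higher, blue lower), open symbols did not. Of those shown, 23, 23 and 3 were called, and the comparisons share mice.

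Markers of cholangiocytes, macrophages and stellate cells were higher in *Atg7*-KO livers. The summed CPM of 7 cholangiocyte and ductular markers was 51.5, 33.5 and 42.6 in cont., 1029.7, 946 and 836 in *Atg7*-KO and 181, 185 and 267 in *Atg7*-KO;p62 T352A livers, led by Spp1, and 6 of the 7 were called higher in *Atg7*-KO. The sum of 9 macrophage markers was 386, 335 and 278 CPM in cont., 1055, 1042 and 1105 CPM in *Atg7*-KO and 193, 382 and 287 CPM in *Atg7*-KO;p62 T352A livers, with Clec4f most abundant, 6 markers higher and 1 (Timd4) lower in *Atg7*-KO. The sum of 7 stellate cell and fibroblast markers was 119.9, 111 and 125 CPM in cont., 541, 732 and 633 CPM in *Atg7*-KO and 151, 138 and 224 CPM in *Atg7*-KO;p62 T352A livers, with Col3a1 most abundant and 5 markers higher in *Atg7*-KO. For 6 sinusoidal endothelial markers the sum was 263, 323 and 296 CPM in cont., 249.5, 252 and 260.5 CPM in *Atg7*-KO and 136, 167 and 151 CPM in *Atg7*-KO;p62 T352A livers, led by Stab2, with 2 markers higher and 1 lower in *Atg7*-KO. This list was lowest in *Atg7*-KO;p62 T352A, where 4 of the 6 markers were called lower than in the *Atg7*-KO and 4 of the 6 lower than in cont. The neutrophil list summed to at most 16.0 CPM in any mouse, led by Csf3r.

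Hepatocyte markers moved in the opposite direction. The sum of 7 general hepatocyte markers, led by Alb, was 136696, 84533 and 72776 CPM in cont., 40773, 41466 and 38696 CPM in *Atg7*-KO and 116644, 128806 and 111330.0 CPM in *Atg7*-KO;p62 T352A livers, and 5 of the 7 were called lower in *Atg7*-KO. Pericentral markers, led by Cyp2e1, summed to 9413, 8879 and 13680.3 CPM in cont., 2327, 2316 and 2385 CPM in *Atg7*-KO and 5450.3, 8838 and 6151 CPM in *Atg7*-KO;p62 T352A livers, with 6 of 8 lower and 1 (Rhbg) higher in *Atg7*-KO. Periportal markers, led by Pck1, summed to 7030.0, 6036 and 6779 CPM in cont., 2952, 2715 and 2517 CPM in *Atg7*-KO and 8738, 7393 and 6784 CPM in *Atg7*-KO;p62 T352A livers, with 5 of 7 lower. No marker of any list was at 0 in all 3 mice of a genotype, and the lowest of the cholangiocyte list in cont. was Cftr at 0.0382 CPM. In these bulk livers, fewer cells of a type and less RNA per cell cannot be told apart. The part of cell composition in the transporter values below was not tested.

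The 250 bases before the start of transcription were read for the members that carried 1 of 2 short letter patterns, because many transporter genes are known targets of NRF2 or ATF4. The patterns were the core of the antioxidant response element, TGACNNNGC, and the core of the amino acid response element, TGATGNAA, searched on both strands of the RefSeq promoters of GRCm38.p6 (250 bases before to 50 after each start). Of the 57 members, 39 had a promoter entry. TGACNNNGC was found in 8 of the 39, against 14.0% of the 27025 genes with an entry, and in 2 of 10 members called higher and 4 of 8 called lower in *Atg7*-KO that had an entry. TGATGNAA was found in 2 of the 39 (*Slc1a4* and *Slc7a7*), against 4.51% of all genes, and in 2 of 10 members called higher and 0 of 8 called lower in *Atg7*-KO. A match is a run of letters and not a bound site. Of the 7 members that were called in both of the first 2 comparisons and held a match, the stretches of 4 follow, those of *Slc43a1*, *Slc6a13* and *Slc7a7* being left out for length, with that of *Slc1a1*, which held neither pattern. They were picked after the values of these genes were seen, so that the letters can be read beside the calls. Capitals mark the matched letters, in either orientation, TGATGNAA in *Slc1a4* and TGACNNNGC in the others, and no printed match overlaps another. The stretch of *Slc1a4* is its last 120 bases before the start with the first 8 after it, since its match spans the start, and the others are 250 bases before a start. The stretch of *Slc6a9* is from 1 of its 3 entries, those of *Slc38a2* and *Slc1a1* from their only entry and that of *Slc7a1* from 1 of 2.
Slc1a4 (chr11:20332706-20332833, minus strand): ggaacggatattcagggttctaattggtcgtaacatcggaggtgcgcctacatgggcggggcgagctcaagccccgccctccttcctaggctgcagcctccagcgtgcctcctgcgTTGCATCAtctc
Slc6a9 (chr4:117849100-117849349, plus strand): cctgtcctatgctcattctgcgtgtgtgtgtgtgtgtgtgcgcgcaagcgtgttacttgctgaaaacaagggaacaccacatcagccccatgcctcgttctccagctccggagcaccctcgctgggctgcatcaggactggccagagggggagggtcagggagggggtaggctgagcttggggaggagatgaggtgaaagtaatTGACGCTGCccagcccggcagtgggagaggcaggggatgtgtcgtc
Slc7a1 (chr5:148399905-148400154, minus strand): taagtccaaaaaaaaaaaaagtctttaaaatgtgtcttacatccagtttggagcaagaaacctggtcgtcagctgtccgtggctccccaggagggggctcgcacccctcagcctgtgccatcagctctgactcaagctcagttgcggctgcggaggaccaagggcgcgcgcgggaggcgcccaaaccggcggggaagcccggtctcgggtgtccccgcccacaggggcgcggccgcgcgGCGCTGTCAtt
Slc38a2 (chr15:96699729-96699978, minus strand): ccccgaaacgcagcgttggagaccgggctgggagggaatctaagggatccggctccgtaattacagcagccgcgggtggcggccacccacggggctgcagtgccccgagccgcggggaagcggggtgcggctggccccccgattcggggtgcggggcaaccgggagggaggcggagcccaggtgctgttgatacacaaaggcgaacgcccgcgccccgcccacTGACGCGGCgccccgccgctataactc
Slc1a1 (chr19:28834885-28835134, plus strand): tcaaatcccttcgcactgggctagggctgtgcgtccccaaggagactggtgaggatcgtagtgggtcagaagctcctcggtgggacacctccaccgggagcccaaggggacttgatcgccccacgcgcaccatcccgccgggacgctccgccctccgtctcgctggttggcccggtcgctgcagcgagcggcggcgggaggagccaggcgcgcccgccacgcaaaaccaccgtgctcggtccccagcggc

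Of the *Slc1* carriers, *Slc1a1* and *Slc1a4* rose by large factors in *Atg7*-KO liver. *Slc1a1* (EAAT3, chr19:28835049-28913960, GRCm38, plus strand) takes up glutamate, aspartate and cysteine. It had 2, 1 and 3 counts in the 3 cont. mice, 2004, 2473 and 2670 in *Atg7*-KO and 404, 79 and 590 in *Atg7*-KO;p62 T352A mice. In CPM these are 0.115, 0.0946 and 0.33, then 96.9, 102 and 114, then 28.8, 5.53 and 38.5. The mRNA was close to absent in cont., high and even in the *Atg7*-KO mice, and uneven in the *Atg7*-KO;p62 T352A mice, of which mouse 2 was lowest, with no overlap between any 2 genotypes. The ratio of *Atg7*-KO to cont. was 646 (95% counting interval 297 to 1761, from 7147 against 6 counts), and that of *Atg7*-KO;p62 T352A to cont. was 152 (69.7 to 416, from 1073 against 6 counts). Both intervals cover counting error only. Without cont. mouse 3, which held 3 of the 6 counts, the fitted log2 fold change was 9.83 in place of 9.25 for *Atg7*-KO and 7.74 in place of 7.15 for *Atg7*-KO;p62 T352A. The latter ranged from 6.65 to 7.74 when 1 mouse was left out, always with the call kept. From *Atg7*-KO to *Atg7*-KO;p62 T352A, *Slc1a1* fell 4.28-fold (log2 fold change -2.10 ± 0.54 SE, FDR = 0.00892), and the FDR was 6.09e-05 for *Atg7*-KO and 0.00369 for *Atg7*-KO;p62 T352A against cont. Of the 75-base stretches of *Slc1a1* transcripts, 30.4% are shared with any other gene, most often with 4430402I18Rik, which overlaps it. That gene went the other way, with 1.83, 1.99 and 3.30 CPM in cont., 0.919, 0.74 and 0.853 CPM in *Atg7*-KO and 2.14, 2.45 and 2.61 CPM in *Atg7*-KO;p62 T352A livers.

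*Slc1a4* (ASCT1, chr11:20302180-20332713, minus strand) exchanges alanine, serine, cysteine and threonine. It was at 7.11, 5.11 and 4.07 CPM in cont., 149, 168 and 179 CPM in *Atg7*-KO and 14.7, 9.11 and 10.2 CPM in *Atg7*-KO;p62 T352A livers, with no overlap between genotypes. *Slc1a4* rose 30.1-fold in *Atg7*-KO (log2 fold change 4.91 ± 0.28, FDR = 1.16e-05) and fell 14.6-fold from there in *Atg7*-KO;p62 T352A (-3.86 ± 0.27, FDR = 2.16e-05). Against cont. the *Atg7*-KO;p62 T352A livers were 2.07-fold higher (FDR = 0.0289), but that call was lost when any 1 of 7 mice was left out (FDR 0.0564 to 0.115, all but cont. mouse 1 and *Atg7*-KO;p62 T352A mouse 2). *Slc1a3* (EAAT1), a glutamate transporter, was at or below 0.677 CPM in every mouse. It had 14 counts in each *Atg7*-KO mouse against 4, 2 and 1 in cont. and entered the test through the *Atg7*-KO mice, where it was highest, so nothing is read from its call, which was also lost under DESeq2. *Slc1a5* (ASCT2), a glutamine exchanger, was not called, with 2.35, 12.6 and 14.5 CPM in cont., 7.88, 7.56 and 8.79 CPM in *Atg7*-KO and 14.3, 11.0 and 16.1 CPM in *Atg7*-KO;p62 T352A livers.

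**Figure D3:**
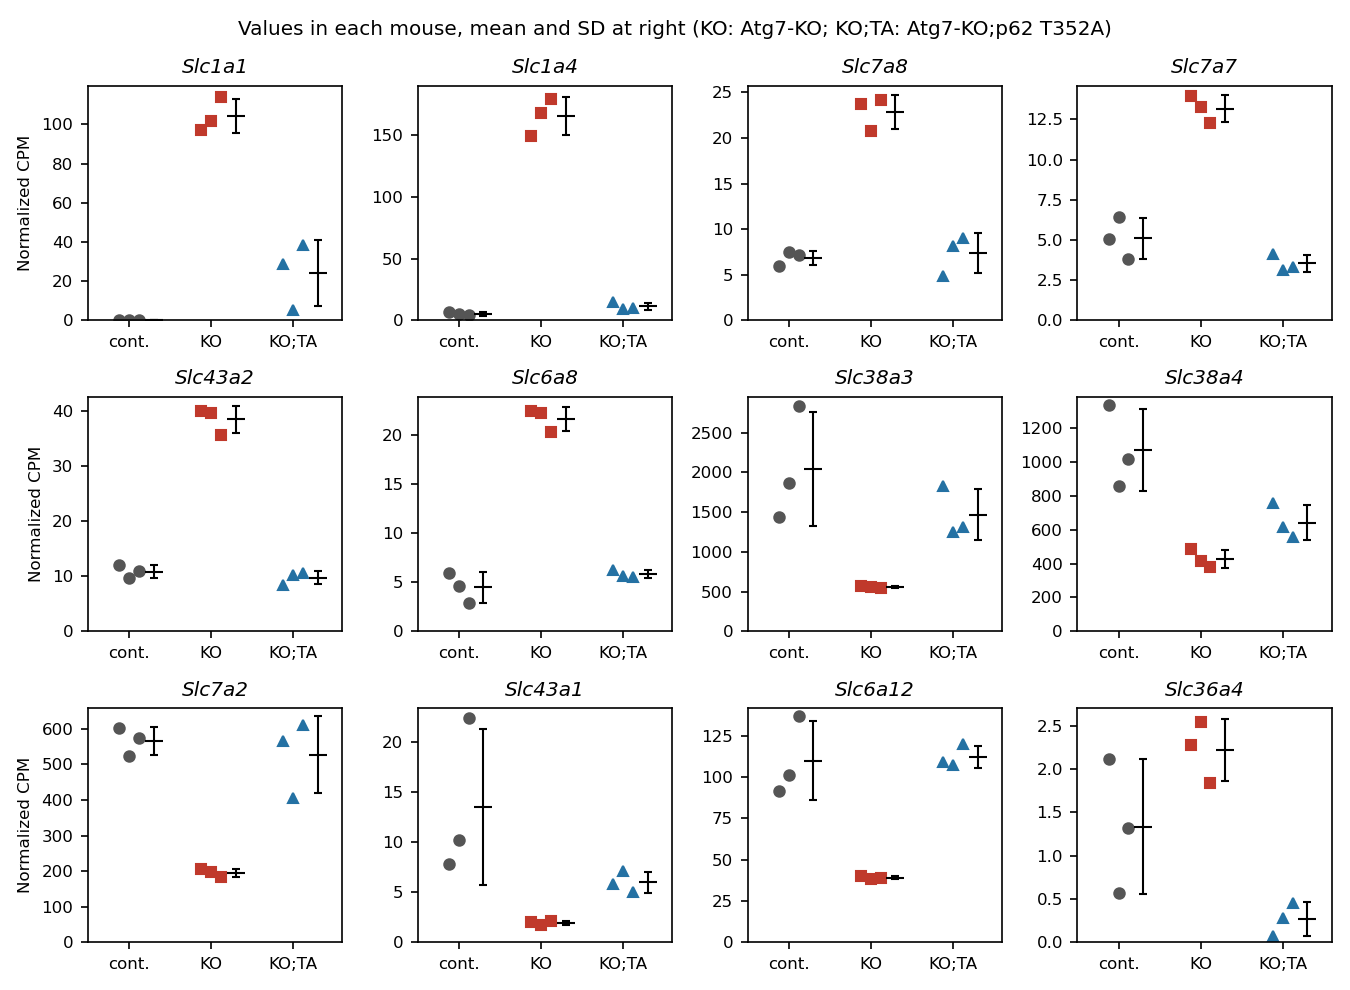
CPM of 12 members, picked after their values were seen, in each mouse (circles cont., squares *Atg7*-KO, triangles *Atg7*-KO;p62 T352A), with the mean and SD of 3 mice beside them and axes from 0. The first 6 are called higher in *Atg7*-KO and the next 5 lower, and in the last, *Slc36a4*, the *Atg7*-KO;p62 T352A mice are lowest.

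The heavy chain *Slc3a2* (CD98) and 2 of its light chains rose together in *Atg7*-KO liver. *Slc3a2*, which carries exchangers to the cell surface, was at 42.8, 41.6 and 43.7 CPM in cont., 98.6, 81.8 and 96.5 CPM in *Atg7*-KO and 44.4, 73.7 and 55.2 CPM in *Atg7*-KO;p62 T352A livers, a rise of 2.16-fold (FDR = 0.00192) and a fall of 1.60-fold (FDR = 0.017). Its values in *Atg7*-KO;p62 T352A were spread between the other genotypes. *Slc7a8* (LAT2), a light chain for neutral amino acids, was at 5.96, 7.47 and 7.14 CPM in cont., 23.7, 20.8 and 24.1 CPM in *Atg7*-KO and 4.86, 8.20 and 9.07 CPM in *Atg7*-KO;p62 T352A livers, and it rose 3.34-fold (FDR = 0.000456) and fell 3.10-fold (FDR = 0.000494). *Slc7a7* (y+LAT1), which exports cationic amino acids against neutral ones and sodium, was at 5.04, 6.43 and 3.85 CPM in cont., 14.0, 13.3 and 12.3 CPM in *Atg7*-KO and 4.14, 3.15 and 3.33 CPM in *Atg7*-KO;p62 T352A livers, and it rose 2.57-fold (FDR = 0.00118) and fell 3.72-fold (FDR = 0.000209). For both light chains the *Atg7*-KO mice were above all others, and the other 2 genotypes overlapped. *Slc7a7* is also known from macrophages, and of 9 macrophage markers 6 were higher and 1 lower in *Atg7*-KO. Markers of cholangiocytes and stellate cells rose too, and the part of any cell type in the *Slc7a7* values was not tested.

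The other tested members of this group were not called in any comparison with edgeR and the settings of the results. In *Atg7*-KO against cont., *Slc7a6* was called by DESeq2 and with upper-quartile normalization. With *Atg7*-KO as baseline, *Slc3a1* was called with the mouse number as a block and with only the compared genotypes in the fit. *Slc7a5* (LAT1), the best known partner of *Slc3a2* in growing cells, was at 2.81, 4.82 and 7.03 CPM in cont., 3.92, 3.45 and 3.93 CPM in *Atg7*-KO and 2.21, 2.31 and 3.26 CPM in *Atg7*-KO;p62 T352A livers. *Slc7a6* (y+LAT2) was at 0.287, 0.946 and 1.54 CPM in cont., 2.13, 2.18 and 1.88 CPM in *Atg7*-KO and 1.499, 0.771 and 1.57 CPM in *Atg7*-KO;p62 T352A livers, with a log2 fold change of 1.25 ± 0.51 for *Atg7*-KO against cont. (FDR = 0.0694). *Slc3a1* (rBAT), the heavy chain of the cystine and cationic exchanger, was at 62.1, 39.6 and 18.7 CPM in cont., 35.4, 30.7 and 23.7 CPM in *Atg7*-KO and 49.6, 65.1 and 46.5 CPM in *Atg7*-KO;p62 T352A livers. Of its stretches, 24.0% are shared with any other gene, most often with Prepl, its neighbour. Without *Atg7*-KO mouse 1 or 3 or *Atg7*-KO;p62 T352A mouse 1 or 3, the fall of *Slc3a2* in *Atg7*-KO;p62 T352A was no longer called (FDR 0.0574 to 0.0635).

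The cationic amino acid transporters split by direction. *Slc7a2* (CAT2), the main arginine transporter of hepatocytes, was at 601, 523 and 574 CPM in cont., 206, 198 and 183 CPM in *Atg7*-KO and 566, 406 and 611 CPM in *Atg7*-KO;p62 T352A livers. It fell 2.90-fold in *Atg7*-KO (log2 fold change -1.53 ± 0.20, FDR = 0.00034) and rose 2.70-fold from there in *Atg7*-KO;p62 T352A (FDR = 0.0004). *Slc7a1* (CAT1), the widely expressed form that is known to be scarce in hepatocytes, was at 0.802, 0.756 and 0.879 CPM in cont., 4.16, 3.49 and 4.14 CPM in *Atg7*-KO and 1.57, 1.05 and 0.979 CPM in *Atg7*-KO;p62 T352A livers, and it rose 4.81-fold (FDR = 0.000284) and fell 3.27-fold (FDR = 0.000739). *Slc7a2* was far above *Slc7a1* also on the per-kilobase scale, with 24.7 ± 1.47 against 0.547 ± 0.0528 CPM per kilobase in *Atg7*-KO. *Slc7a4*, whose transport activity is not settled, was at 1.60, 0.756 and 0.659 CPM in cont., 2.08, 1.56 and 2.09 CPM in *Atg7*-KO and 0.571, 0.49 and 0.653 CPM in *Atg7*-KO;p62 T352A livers, and with all mice its one call was a fall from *Atg7*-KO to *Atg7*-KO;p62 T352A (3.30-fold, FDR = 0.00481). Without cont. mouse 1, its rise in *Atg7*-KO was called as well (FDR = 0.00599). Of the *Slc7a2* stretches, 5.40% are shared with any other gene, most often with Gm26584.

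System A and system N held the most abundant members, and of the 4 tested, 3 were called lower and 1 higher in *Atg7*-KO liver. Among all tested genes, 22.1% were called lower and 21.6% higher. *Slc38a3* (SNAT3), the glutamine exchanger of system N, was at 1439, 1866 and 2833 CPM in cont., 569, 555 and 543 CPM in *Atg7*-KO and 1834, 1251 and 1313 CPM in *Atg7*-KO;p62 T352A livers. It fell 3.68-fold (FDR = 0.000701) and rose 2.64-fold (FDR = 0.00249). The 3 *Atg7*-KO mice lay close together and far below the others, whose 2 genotypes overlapped. *Slc38a4* (SNAT4), known for its high level in liver, was at 1334, 855 and 1016 CPM in cont., 485, 417 and 379 CPM in *Atg7*-KO and 757, 614 and 554 CPM in *Atg7*-KO;p62 T352A livers. It fell 2.50-fold in *Atg7*-KO (FDR = 0.00157), and its log2 fold change from *Atg7*-KO to *Atg7*-KO;p62 T352A was 0.59 ± 0.23 (FDR = 0.0508), which missed the threshold although the groups did not overlap. Without cont. mouse 1 this difference was called (FDR = 0.0142).

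*Slc38a2* (SNAT2), the system A carrier that is known to be induced when amino acids are scarce, was at 204, 274 and 590.4 CPM in cont., 105, 88.4 and 94.2 CPM in *Atg7*-KO and 244, 171 and 247 CPM in *Atg7*-KO;p62 T352A livers. It fell 3.71-fold (FDR = 0.0027) and rose 2.30-fold (FDR = 0.0178), the second call being lost without *Atg7*-KO mouse 2 or 3 or *Atg7*-KO;p62 T352A mouse 1 or 3 (FDR 0.0523 to 0.0637). Its cont. values spanned a wide range, with mouse 3 highest. *Slc38a1* (SNAT1), the system A carrier of brain and many other tissues, went the other way at a low level, with 1.49, 3.50 and 1.54 CPM in cont., 5.95, 5.75 and 6.06 CPM in *Atg7*-KO and 1.57, 3.22 and 2.42 CPM in *Atg7*-KO;p62 T352A livers, a rise of 2.74-fold (FDR = 0.0105) and a fall of 2.46-fold (FDR = 0.0134). *Slc38a1*, *Slc38a2* and *Slc38a4* lie next to each other on chromosome 15, at chr15:96571418-96642913, chr15:96687392-96699730 and chr15:96994820-97055956, all on the minus strand. Of these neighbours, *Slc38a1* rose and the others fell in *Atg7*-KO.

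Among the other *Slc38* genes, *Slc38a9* and *Slc38a6* fell and *Slc38a10* rose in *Atg7*-KO. *Slc38a9*, the lysosomal arginine sensor that acts on mTORC1, was at 12.7, 28.7 and 27.8 CPM in cont., 12.3, 11.9 and 11.3 CPM in *Atg7*-KO and 25.8, 16.5 and 26.6 CPM in *Atg7*-KO;p62 T352A livers, lower by 1.94-fold (FDR = 0.0289) and then higher by 1.94-fold (FDR = 0.0248). In cont. mouse 1 its value lay near those of *Atg7*-KO. *Slc38a6* was at 6.30, 41.9 and 39.0 CPM in cont., 7.98, 6.45 and 7.08 CPM in *Atg7*-KO and 28.8, 15.9 and 19.97 CPM in *Atg7*-KO;p62 T352A livers. Cont. mouse 1 lay below the *Atg7*-KO mice and the other cont. mice lay above them. *Slc38a6* was the only called member whose groups overlapped between *Atg7*-KO and cont. (FDR = 0.0162, then 0.0356 for *Atg7*-KO;p62 T352A against *Atg7*-KO). Of its stretches, 30.8% are shared with any other gene, most often with Noct. *Slc38a10* was at 86.4, 59.1 and 47.0 CPM in cont., 96.0, 97.9 and 103 CPM in *Atg7*-KO and 47.3, 52.9 and 44.3 CPM in *Atg7*-KO;p62 T352A livers, higher by 1.54-fold in *Atg7*-KO (FDR = 0.0407) and lower by 2.06-fold in *Atg7*-KO;p62 T352A (FDR = 0.00354). The first *Slc38a10* call was lost without any 1 of 8 mice, all but cont. mouse 1 (FDR 0.0521 to 0.214), and the *Slc38a9* calls without any *Atg7*-KO mouse among others (FDR 0.0702 to 0.0867 and 0.0604 to 0.0775). The *Slc38a6* calls were lost without *Atg7*-KO mouse 2 or 3 (FDR 0.0536 to 0.0576) and, for the second, also without *Atg7*-KO mouse 1 or *Atg7*-KO;p62 T352A mouse 1 or 3 (FDR 0.0642 to 0.11). With the mouse number as a block in the fit, the first *Slc38a9* call and the second *Slc38a6* call were lost. *Slc38a7* was not called, at 23.1, 35.2 and 27.9 CPM in cont., 21.4, 22.9 and 27.0 CPM in *Atg7*-KO and 32.1, 26.3 and 32.4 CPM in *Atg7*-KO;p62 T352A livers.

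Both tested proton-coupled *Slc36* genes had their 3 *Atg7*-KO;p62 T352A mice below all cont. mice, and of them only *Slc36a4* was called. In this comparison the groups did not overlap for 26.6% of all tested genes. *Slc36a1* (PAT1), which exports small amino acids from lysosomes, was at 43.5, 42.8 and 50.4 CPM in cont., 23.8, 31.0 and 29.6 CPM in *Atg7*-KO and 36.5, 29.2 and 26.4 CPM in *Atg7*-KO;p62 T352A livers. It fell 1.62-fold in *Atg7*-KO (FDR = 0.0119, lost without *Atg7*-KO mouse 1 at FDR = 0.0592), and its values in *Atg7*-KO;p62 T352A overlapped those of *Atg7*-KO and lay below all cont. mice (FDR = 0.072). *Slc36a4* (PAT4), a carrier of proline and tryptophan, was at 2.12, 0.567 and 1.32 CPM in cont., 2.27, 2.55 and 1.83 CPM in *Atg7*-KO and 0.0714, 0.28 and 0.457 CPM in *Atg7*-KO;p62 T352A livers, from 1, 4 and 7 counts in the last genotype. In *Atg7*-KO;p62 T352A livers *Slc36a4* was 7.93-fold lower than in the *Atg7*-KO (FDR = 0.00228) and 4.93-fold lower than in cont. (FDR = 0.0386). The second of these calls was lost when any 1 mouse but cont. mouse 2 was left out (FDR 0.0572 to 0.0989), and also with the mouse number as a block in the fit. Without *Atg7*-KO;p62 T352A mouse 3, the log2 fold change of *Slc36a4* was -3.59 against *Atg7*-KO in place of -2.99 and -2.91 against cont. in place of -2.30. Without cont. mouse 1, its rise in *Atg7*-KO was called (FDR = 0.0463), and so was the lower *Slc36a1* of *Atg7*-KO;p62 T352A against cont. (FDR = 0.0323).

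The 2 *Slc43* carriers of large neutral amino acids moved in opposite directions. *Slc43a1* (LAT3) was at 7.85, 10.2 and 22.3 CPM in cont., 1.98, 1.77 and 2.09 CPM in *Atg7*-KO and 5.86, 7.07 and 5.03 CPM in *Atg7*-KO;p62 T352A livers. It fell 6.84-fold (FDR = 0.000461) and rose 3.07-fold (FDR = 0.0056), and all *Atg7*-KO;p62 T352A mice lay between the other genotypes, which was not called against cont. (FDR = 0.0661, and 0.00864 without cont. mouse 1). *Slc43a2* (LAT4) was at 12.1, 9.64 and 10.9 CPM in cont., 40.1, 39.7 and 35.7 CPM in *Atg7*-KO and 8.35, 10.3 and 10.6 CPM in *Atg7*-KO;p62 T352A livers, and it rose 3.53-fold (log2 fold change 1.82 ± 0.17, FDR = 6.41e-05) and fell 3.94-fold (-1.98 ± 0.17, FDR = 5.20e-05). Its *Atg7*-KO;p62 T352A mice overlapped cont. Of its stretches, 7.72% are shared with any other gene, most often with Gm45606. *Slc43a3*, known as a nucleobase rather than an amino acid carrier, was not called, at 34.4, 97.8 and 99.4 CPM in cont., 51.1, 57.1 and 50.6 CPM in *Atg7*-KO and 51.0, 39.1 and 59.3 CPM in *Atg7*-KO;p62 T352A livers, with cont. mouse 1 well below the other cont. mice.

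Among the *Slc6* amino acid carriers only *Slc6a9* and *Slc6a7* could be tested. *Slc6a9* (GlyT1), a glycine transporter, was at 27.6, 88.7 and 31.4 CPM in cont., 114, 109 and 113 CPM in *Atg7*-KO and 45.6, 35.2 and 38.1 CPM in *Atg7*-KO;p62 T352A livers. It rose 2.28-fold (FDR = 0.0311) and fell 2.83-fold (FDR = 0.00986). Cont. mouse 2 was nearer to *Atg7*-KO than to the other cont. mice, and without it the log2 fold change of the rise was 1.85 in place of 1.19. The first call was lost without cont. mouse 3 or any 1 *Atg7*-KO mouse (FDR 0.067 to 0.0931). Of its stretches, 24.3% are shared with any other gene, most often with Ccdc24, which had at most 0.55 CPM in any mouse. *Slc6a7* (PROT), a proline transporter of brain, had 0, 8 and 20 counts in cont., 1, 3 and 2 in *Atg7*-KO and 19, 8 and 39 in *Atg7*-KO;p62 T352A livers. The ratio of the last to *Atg7*-KO was 17.3 (95% counting interval 7.53 to 48.8, which covers counting error only), and edgeR gave FDR = 0.0162. The call was lost without *Atg7*-KO mouse 1 or 3 or *Atg7*-KO;p62 T352A mouse 3 (FDR 0.055 to 0.0618). Without the last of these mice the fitted log2 fold change was 3.35 in place of 3.99. Without cont. mouse 1, which had 0 counts, the fall of *Slc6a7* in *Atg7*-KO was called too (FDR = 0.00273).

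The *Slc6* carriers of amines, osmolytes and creatine also split. *Slc6a12* (BGT1), which carries betaine and GABA, was at 91.3, 101 and 137 CPM in cont., 40.1, 38.1 and 38.9 CPM in *Atg7*-KO and 109, 107 and 119.8 CPM in *Atg7*-KO;p62 T352A livers, falling 2.81-fold (FDR = 0.000256) and rising 2.87-fold (FDR = 0.000215). Its neighbour on chromosome 6, *Slc6a13* (GAT2), which carries GABA and taurine into hepatocytes, was at 233, 192 and 177 CPM in cont., 111, 117 and 103 CPM in *Atg7*-KO and 226, 271 and 192 CPM in *Atg7*-KO;p62 T352A livers, falling 1.81-fold (FDR = 0.00527) and rising 2.08-fold (FDR = 0.00151). For both genes the *Atg7*-KO mice lay below all others. The taurine transporter *Slc6a6* (TauT) and the creatine transporter *Slc6a8* (CT1) went up instead. *Slc6a6* was at 117, 71.4 and 64.8 CPM in cont., 144, 152 and 167 CPM in *Atg7*-KO and 97.3, 66.1 and 109.9 CPM in *Atg7*-KO;p62 T352A livers, a rise of 1.82-fold (FDR = 0.0233) and a fall of 1.69-fold (FDR = 0.0346). The X-linked *Slc6a8* was at 5.90, 4.63 and 2.86 CPM in cont., 22.4, 22.2 and 20.2 CPM in *Atg7*-KO and 6.28, 5.67 and 5.55 CPM in *Atg7*-KO;p62 T352A livers, a rise of 4.77-fold (FDR = 0.000139) and a fall of 3.70-fold (FDR = 0.000263). The *Slc6a6* calls were lost without any *Atg7*-KO mouse and without some others (FDR 0.0519 to 0.135 for the rise, 0.0514 to 0.112 for the fall).

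Summed over each role, the *Slc1* carriers were at 9.86, 18.1 and 19.2 CPM in cont., 255, 278 and 303 CPM in *Atg7*-KO and 58.0, 26.2 and 65.3 CPM in *Atg7*-KO;p62 T352A livers. The light chains of heteromeric transporters were at 14.2, 20.05 and 19.7 CPM in cont., 44.0, 40.2 and 42.3 CPM in *Atg7*-KO and 13.0, 14.9 and 17.9 CPM in *Atg7*-KO;p62 T352A livers. In both roles every *Atg7*-KO mouse was above every other mouse. System A and system N summed to 2978, 2999 and 4442 CPM in cont., 1166, 1066 and 1023 CPM in *Atg7*-KO and 2837, 2039 and 2117 CPM in *Atg7*-KO;p62 T352A livers, and the cationic transporters, set by *Slc7a2*, to 603, 525 and 576 CPM in cont., 212, 203 and 189 CPM in *Atg7*-KO and 569, 407 and 613 CPM in *Atg7*-KO;p62 T352A livers. In these 2 roles every *Atg7*-KO mouse was below every other mouse. The *Slc6* amino acid carriers, set by *Slc6a9*, summed to 27.6, 89.5 and 33.7 CPM in cont., 115, 109.9 and 113 CPM in *Atg7*-KO and 46.9, 35.8 and 40.7 CPM in *Atg7*-KO;p62 T352A livers, with *Atg7*-KO highest, and the *Slc6* carriers of amines, osmolytes and creatine to 447, 369 and 382 CPM in cont., 318, 331 and 330.0 CPM in *Atg7*-KO and 439.8, 449.7 and 429 CPM in *Atg7*-KO;p62 T352A livers, with *Atg7*-KO lowest. The other 4 roles did not set *Atg7*-KO apart from both other genotypes. The heavy chains summed to 105, 81.2 and 62.4 CPM in cont., 134, 112 and 120.2 CPM in *Atg7*-KO and 94.0, 139 and 102 CPM in *Atg7*-KO;p62 T352A livers. The other *Slc38* genes summed to 129, 165 and 142 CPM in cont., 138, 139 and 149 CPM in *Atg7*-KO and 134, 112 and 123 CPM in *Atg7*-KO;p62 T352A livers. *Slc43* genes were at 54.3, 118 and 133 CPM in cont., 93.1, 98.6 and 88.4 CPM in *Atg7*-KO and 65.2, 56.5 and 74.9 CPM in *Atg7*-KO;p62 T352A livers and *Slc36* genes at 45.7, 43.4 and 51.8 CPM in cont., 26.2, 33.6 and 31.4 CPM in *Atg7*-KO and 36.6, 29.5 and 26.8 CPM in *Atg7*-KO;p62 T352A livers. For the *Slc36* genes both Cre-carrying genotypes lay below cont., and for the heavy chains *Atg7*-KO lay above cont.

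**Figure D4:**
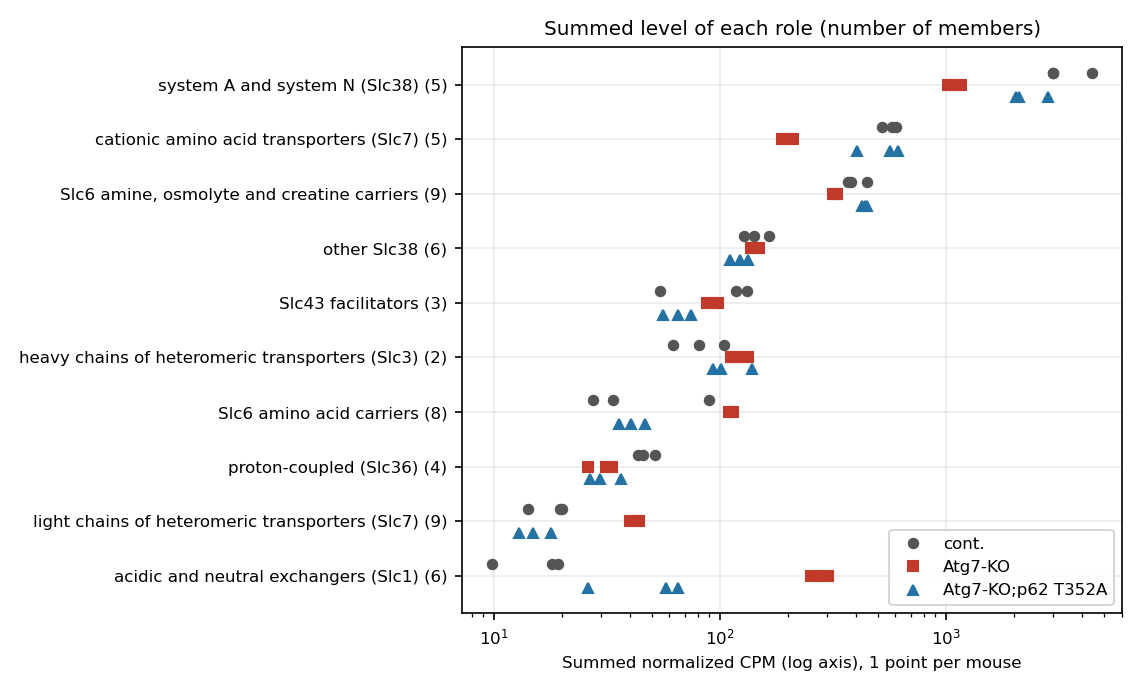
Summed CPM of the members of each role on a log axis, 1 point per mouse, with the number of members in brackets. System A and system N, the cationic transporters (set by *Slc7a2*) and the *Slc6* amine, osmolyte and creatine carriers are lowest in *Atg7*-KO, the *Slc1* carriers, the light chains and the *Slc6* amino acid carriers highest, and in the other 4 roles *Atg7*-KO overlaps another genotype.

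The 24 members that were not tested had at most 14 counts in any mouse, and 6 of them had 0 counts in every mouse. They are *Slc1a6*, *Slc1a7*, *Slc36a2*, *Slc36a3*, *Slc38a5*, *Slc38a8*, *Slc38a11*, *Slc6a2*, *Slc6a3*, *Slc6a4*, *Slc6a5*, *Slc6a11*, *Slc6a14*, *Slc6a15*, *Slc6a17*, *Slc6a18*, *Slc6a19*, *Slc7a3*, *Slc7a9*, *Slc7a10*, *Slc7a12*, *Slc7a13*, *Slc7a14* and *Slc7a15*. Many of these are known from kidney, intestine or brain. *Slc6a19* (B0AT1), the neutral amino acid transporter of kidney and intestine, had 8, 14 and 7 counts in the *Atg7*-KO mice, 0 in every cont. mouse and 1 in the *Atg7*-KO;p62 T352A mice together. With 3 counts put in place of the 0 of cont. as a floor, the *Atg7*-KO livers were 5.24-fold higher, from 29 counts. The counting error of the 29 is not in this ratio, so it is not a lower limit. *Slc7a14*, a lysosomal member, had 1, 2 and 1 counts in cont., 0 in every *Atg7*-KO mouse and 5, 3 and 8 in *Atg7*-KO;p62 T352A mice. With the same floor for *Atg7*-KO, it was 8.37-fold higher in *Atg7*-KO;p62 T352A, again without counting error. Both genes were singled out after their counts were seen, as the members called when no filter on low counts was used, with *Slc6a4* in the first comparison.

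Other amino acid and peptide carriers, mostly of lysosomes and mitochondria, were read as a list of 20 genes, of which 16 were tested. In *Atg7*-KO against cont., 1 was called higher and 7 lower, with a median log2 fold change of -0.70, against -0.03 over all tested genes. These 8 are 50% of the 16, and 43.7% of all tested genes were called. Without *Atg7*-KO mouse 1 or mouse 2 the 8 calls became 5, and without *Atg7*-KO mouse 3 they became 3. *Slc15a3*, a lysosomal peptide and histidine transporter known from macrophages, was the one that rose, with 7.74, 5.20 and 4.29 CPM in cont., 29.1, 27.5 and 29.7 CPM in *Atg7*-KO and 5.86, 9.25 and 10.1 CPM in *Atg7*-KO;p62 T352A livers (4.94-fold, FDR = 0.000188). The largest falls were those of *Slc25a2*, a mitochondrial ornithine carrier (0.0573, 1.42 and 1.32 CPM in cont., 0.145, 0.0411 and 0 CPM in *Atg7*-KO and 0.571, 0.28 and 1.11 CPM in *Atg7*-KO;p62 T352A livers), and *Slc25a38*, a mitochondrial glycine carrier (23.7, 49.5 and 55.6 CPM in cont., 10.0, 11.6 and 10.4 CPM in *Atg7*-KO and 36.1, 28.6 and 29.8 CPM in *Atg7*-KO;p62 T352A livers, 4.01-fold lower, FDR = 0.000616). The *Slc25a2* call (FDR = 0.0266) was lost without cont. mouse 2 or 3 or *Atg7*-KO mouse 2 or 3 (FDR 0.0751 to 0.0906). In *Atg7*-KO;p62 T352A livers, 6 of the 16 were higher and 4 lower than in the *Atg7*-KO (median log2 fold change 0.63, 62.5% called against 51.0% of all genes), and 0 were higher and 1 lower than in cont. (median -0.24, 6.25% against 11.6%), the last count lying between 0 and 4 when 1 mouse was left out.

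Genes that sense amino acids for mTORC1 were read in the same way, with 29 of 31 tested. In *Atg7*-KO against cont., 4 were called higher and 9 lower, with a median log2 fold change of -0.20, so that the share called, 44.8%, was near the 43.7% of all tested genes. For *Atg7*-KO;p62 T352A, 6 were higher and 8 lower than in the *Atg7*-KO (median 0.03, 48.3% called against 51.0% of all genes), and 1 was higher and 6 lower than in cont. (median -0.23, 24.1% against 11.6%). The 14 calls became 9 without *Atg7*-KO mouse 1 or mouse 2. The 7 calls against cont. became 2 without *Atg7*-KO;p62 T352A mouse 3, 3 without its mouse 1 and 4 without its mouse 2 or any 1 *Atg7*-KO mouse, and they were 0 with the *Atg7*-KO mice left out of the fit. The Rag GTPase Rragd was at 2.52, 2.55 and 2.20 CPM in cont., 81.1, 62.7 and 63.5 CPM in *Atg7*-KO and 1.93, 1.89 and 4.504 CPM in *Atg7*-KO;p62 T352A livers, a rise of 28.3-fold (FDR = 2.03e-05) and a fall of 24.7-fold (FDR = 2.59e-05). Sesn2, a leucine sensor and stress-induced gene, was at 5.67, 6.62 and 4.40 CPM in cont., 17.4, 21.4 and 19.2 CPM in *Atg7*-KO and 2.64, 2.24 and 2.68 CPM in *Atg7*-KO;p62 T352A livers, up 3.47-fold in *Atg7*-KO (FDR = 0.000166) and below cont. in *Atg7*-KO;p62 T352A (FDR = 0.0125). Flcn, which acts on Rag GTPases, was at 27.5, 163 and 203 CPM in cont., 22.7, 22.4 and 29.3 CPM in *Atg7*-KO and 61.2, 41.3 and 94.6 CPM in *Atg7*-KO;p62 T352A livers (5.28-fold lower in *Atg7*-KO, FDR = 0.0101), and its cont. mouse 1 lay near the *Atg7*-KO mice. Tsc1, an inhibitor of mTORC1 signalling, was at 26.3, 46.8 and 78.9 CPM in cont., 15.9, 18.8 and 16.9 CPM in *Atg7*-KO and 21.6, 21.9 and 24.4 CPM in *Atg7*-KO;p62 T352A livers (2.94-fold lower in *Atg7*-KO, FDR = 0.00438).

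The amino acid response through GCN2 and ATF4, which is known to induce several of these transporters, was read with 13 genes, all tested. In *Atg7*-KO against cont., 1 was called higher and 4 lower, with a median log2 fold change of -0.79 and a share called of 38.5%, beside 43.7% of all tested genes. These 5 calls became 1 without *Atg7*-KO mouse 2 and 3 without *Atg7*-KO mouse 1 or mouse 3. For *Atg7*-KO;p62 T352A, 3 were higher and 0 lower than in the *Atg7*-KO (median 0.80, 23.1% called against 51.0% of all genes), and 0 were higher and 1 lower than in cont. (median 0.10, 7.69% against 11.6%). Without cont. mouse 1 the 3 calls became 6, and the 1 call against cont. became 2 without cont. mouse 1 and 0 without any 1 of the other 8 mice. Nupr1, a stress-induced chromatin protein, was the one that rose, with 0.401, 1.51 and 1.65 CPM in cont., 2.76, 2.55 and 4.10 CPM in *Atg7*-KO and 1.71, 3.36 and 2.35 CPM in *Atg7*-KO;p62 T352A livers (2.77-fold, FDR = 0.0325, lost without any 1 *Atg7*-KO mouse at FDR 0.0543 to 0.115). The largest falls were those of Vldlr, a lipoprotein receptor (4.07, 21.5 and 38.9 CPM in cont., 2.13, 1.81 and 1.24 CPM in *Atg7*-KO and 4.07, 3.71 and 5.16 CPM in *Atg7*-KO;p62 T352A livers, FDR = 0.00216), and Cebpb, a transcription factor of the liver (152, 284 and 467 CPM in cont., 127, 111 and 126 CPM in *Atg7*-KO and 469, 348 and 472 CPM in *Atg7*-KO;p62 T352A livers, FDR = 0.0129, lost without *Atg7*-KO mouse 2 at FDR = 0.0517). Atf4 itself, chosen after its values were seen, was at 111, 107 and 92.1 CPM in cont., 67.5, 64.2 and 70.2 CPM in *Atg7*-KO and 134, 137 and 135 CPM in *Atg7*-KO;p62 T352A livers (1.53-fold lower in *Atg7*-KO, FDR = 0.00815).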

How the data were processed

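Poly(A) RNA of 9 livers was sequenced as single-end reads. The authors trimmed reads with Trim Galore, aligned them to mm10 with STAR and deposited RSEM expected counts per gene (tool versions and strand setting are not given in the sources used here), so reads of overlapping antisense genes cannot be told apart. For this work the expected counts were rounded (8.34% of values were not whole). edgeR 4.0.16 in R 4.3.3 fitted the 3 genotypes together (TMM, filterByExpr by genotype, quasi-likelihood test, Benjamini-Hochberg adjustment), with an FDR under 0.05 and a fold over 1.5 as the call. CPM per kilobase, lengths and positions use GENCODE gene models of GRCm38, and promoters RefSeq's GRCm38.p6 table. DESeq2 1.42.0 and other settings were alternatives. The tests were checked on simulated data with the same spread between mice (dispersion 0.08) in all genes and genotypes. Of 200 genes changed 4-fold, 99, 99 and 98.5% were recovered in the 3 comparisons. A spread that differs between genotypes, or a mouse that stands apart, was not simulated.

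The members and lists were chosen with earlier results of these data known. The named genes are *Slc1a1*, members called in any comparison with a mean of at least 1 CPM in a genotype, the 5 members with the highest level per kilobase and, of each pathway list, up to 2 genes with the largest rise and 2 with the largest fall among those called in *Atg7*-KO against cont. Other members are named to account for the whole family. Replicates were separate mice. No pair of libraries of the same genotype agreed within sampling noise. The livers of p62 T352A mice without Alb-Cre were not analysed here. The labels name an RNeasy kit for RNA extraction and the study's methods TRIzol. The values of 1 tested member and of 1 cell type list are not reported here, but that member is included in the counts and medians over members.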

Additional observations from a re-analysis of the deposited data

How the results depend on the processing

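The calls were recomputed under 21 alternatives. Values in brackets are those with the settings of the results, and the pathway lists are counted in both directions together. Of the members called, 13 of 24 in *Atg7*-KO against cont., 13 of 23 in *Atg7*-KO;p62 T352A with *Atg7*-KO as baseline and 0 of 3 in *Atg7*-KO;p62 T352A against cont. were called in every alternative. A member not tested in an alternative counts here as not called. With at least 10 counts in every mouse, 4, 5 and 2 of these members were not tested, *Slc1a1* among them each time. In *Atg7*-KO;p62 T352A against cont., the *Slc1a1* call was kept in every alternative that tested it. Comparisons of *Atg7*-KO;p62 T352A with cont. moved most. For single genes, 138 values lost a call and 34 gained one, and many of the calls lost or gained by leaving out a mouse stand beside the genes in the results. Of those not given there, leaving out cont. mouse 1 added *Slc1a5*, *Slc43a3* and *Slc7a5* in *Atg7*-KO against cont., *Slc1a5*, *Slc3a1*, Flcn and Vldlr in *Atg7*-KO;p62 T352A with *Atg7*-KO as baseline, and *Slc15a3*, *Slc25a38* and Flcn in *Atg7*-KO;p62 T352A against cont., and leaving out cont. mouse 3 added *Slc3a1* with *Atg7*-KO as baseline and *Slc3a1* and *Slc7a6* in *Atg7*-KO against cont. The *Slc25a2* call with *Atg7*-KO as baseline was lost in 4 cases, and the Tsc1 and Vldlr calls against cont. in 8 each. The causes of these changes were not tested.

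Same-numbered mice were not treated as paired. Their deviations from the genotype means correlated at -0.202 to 0.321 over 9 pairs (mean 0.146, other pairs -0.0705), and 6 of 9 were over 0.1. The mice numbered 1 were also the 3 with low *Xist*, so the block follows, in part, sex as read from that RNA. With a replicate block, *Atg7*-KO;p62 T352A against cont. gave 517 higher and 471 lower genes (870 and 743 without it), 0 members lower (1), 4 mTORC1 genes (7) and 0 GCN2 and ATF4 genes (1), and *Slc38a9* changed sign at 0.0272 (log2 fold change). No other count moved by over 1.5 times under the block. Among the members, the block removed the calls of *Slc38a9* and *Slc1a3* in *Atg7*-KO against cont., of *Slc38a6* with *Atg7*-KO as baseline and of *Slc36a4* against cont., and added *Slc3a1* with *Atg7*-KO as baseline, and of the pathway genes it removed those of *Slc25a2* with *Atg7*-KO as baseline and of Tsc1 and Vldlr against cont.

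With edgeR's glmTreat against a fold change of 1.5, *Atg7*-KO against cont. gave 1717 lower genes (3074), 3 carriers outside the rule (8), 7 mTORC1 genes (13) and 2 GCN2 and ATF4 genes (5). Under it, *Atg7*-KO;p62 T352A with *Atg7*-KO as baseline gave 2157 higher genes (3443), 6 carriers (10) and 9 mTORC1 genes (14), and against cont. 101 higher (870) and 152 lower genes (743), 1 member higher (2), 0 lower (1), 0 carriers (1), 0 mTORC1 genes (7) and 0 GCN2 and ATF4 genes (1). With at least 10 counts in every mouse, which tests fewer genes, *Atg7*-KO against cont. gave 5 carriers and 3 GCN2 and ATF4 genes, and *Atg7*-KO;p62 T352A against cont. 1 member higher and 0 lower. Without any mouse numbered 1, 5 GCN2 and ATF4 genes differed between the Cre-carrying genotypes (3), and *Atg7*-KO;p62 T352A against cont. gave 1314 higher and 1661 lower genes, 7 members lower, 4 carriers and 2 GCN2 and ATF4 genes. With only the compared genotypes in the fit, 6 GCN2 and ATF4 genes differed between the Cre-carrying genotypes, and *Atg7*-KO;p62 T352A against cont. gave 23 higher and 27 lower genes, 1 member higher, 0 lower, 0 carriers, 0 mTORC1 genes and 0 GCN2 and ATF4 genes. In that comparison DESeq2 gave 1196 lower genes, 4 members lower and 3 carriers, and DESeq2 size factors in edgeR and no filter on low counts each gave 2 carriers. Within 250 bases before the start alone, 1 member held TGATGNAA (2).

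Leaving out 1 mouse at a time, *Atg7*-KO against cont. gave 2383 to 3984 higher and 2149 to 3976 lower genes, 9 to 15 members higher and 8 to 14 lower, 3 to 11 carriers, 9 to 18 mTORC1 genes and 1 to 6 GCN2 and ATF4 genes. With *Atg7*-KO as baseline, *Atg7*-KO;p62 T352A gave 2667 to 4007 higher and 2985 to 4135 lower genes, 5 to 12 members higher and 12 to 14 lower, 7 to 11 carriers, 9 to 16 mTORC1 genes and 3 to 6 GCN2 and ATF4 genes. Against cont. the ranges were 244 to 1514 higher and 191 to 1731 lower genes, 1 to 2 members higher and 0 to 6 lower, 0 to 4 carriers, 2 to 8 mTORC1 genes and 0 to 2 GCN2 and ATF4 genes.

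Signs changed only for differences that were not called before or after. From *Atg7*-KO to *Atg7*-KO;p62 T352A, *Slc36a1* (log2 fold change 0.13) went to -0.0144 with upper-quartile normalization, -0.122 without the mice numbered 1 and -0.0134 to 0.229 leaving out 1 mouse. All others were in *Atg7*-KO;p62 T352A against cont. *Slc38a9* went to 0.0068 with no filter, 0.004 with at least 10 counts in every mouse, 0.0001 with the 20 most counted genes out of the library sizes and -0.299 to 0.191 leaving out 1 mouse. *Slc6a12* went to -0.0166 with DESeq2, -0.0177 with DESeq2 size factors, -0.0673 without the mice numbered 1 and -0.0848 to 0.218 leaving out 1 mouse, and *Slc43a2* to 0.0317 without the mice numbered 1. Leaving out 1 mouse gave *Slc38a1* -0.109 to 0.596, *Slc6a6* -0.0842 to 0.420, *Slc6a9* -0.601 to 0.359, *Slc7a2* -0.227 to 0.0553, *Slc7a8* -0.0665 to 0.337, *Slc25a2* -1.04 to 0.130 and Rragd -0.348 to 0.406. The all-gene median shifted under upper-quartile scaling from -0.03 to 0.08 (log2) in *Atg7*-KO against cont. and from 0.0021 to -0.13 with *Atg7*-KO as baseline. Members with few counts, such as *Slc1a3*, *Slc6a7* and *Slc36a4*, carry more counting error, and how far it sets the spread between mice was not tested.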
